A study of Arabidopsis thaliana with 4 samples.

Results

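The genes described here encode the mitochondrial pyruvate dehydrogenase complex and the enzymes of the tricarboxylic acid (TCA) cycle of Arabidopsis thaliana. The list also holds the NAD malic enzymes, the cytosolic fumarase FUM2 and the cytosolic isocitrate dehydrogenase cICDH. Its 36 genes were chosen by function, with earlier results of these data known, and looked up by locus. Each was measured by 1 probe set, which makes 36 of 27826 probe sets on the array, or 0.129%. Transcripts were measured in whole rosettes of 4-week-old plants on Affymetrix arrays. The first group was labelled ∆13RAP2.12, genotype 35S:∆13RAP2.12 in the Columbia-0 background, with 2 arrays. This genotype name stands for a shortened RAP2.12, a transcription factor of the oxygen-sensing ERF-VII group, placed behind 35S, a promoter of viral origin that drives genes in most cells of a plant. The second group was wild-type Col-0, also with 2 arrays. No stress treatment is named for either group, and the number of transgenic lines was not given in the sources used here. Set side by side, the groups show how transcript levels in rosettes labelled with the shortened factor compare with those of the wild type. The series text describes 6 arrays, and the arrays other than these 4 were not analysed here.

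Pyruvate dehydrogenase turns pyruvate, the end product of glycolysis, into acetyl-CoA inside mitochondria. The TCA cycle then oxidises the acetyl group and hands electrons to the respiratory chain, whose last step needs oxygen. In leaves the same enzymes also supply citrate and 2-oxoglutarate for nitrogen assimilation, and malate and fumarate are stored and exported. When oxygen is short, plant cells instead pass pyruvate to fermentation enzymes, which genes under ERF-VII control encode.

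Levels are RMA values on the log2 scale, so a difference of 1 is 2-fold. Median levels over all probe sets were 7.91 and 7.89 on the arrays labelled ∆13RAP2.12 and 7.88 on both Col-0 arrays. RAP2.12 itself (AT1G53910) had 11.28 and 11.06 on the arrays labelled ∆13RAP2.12, against 11.07 and 11.16 on the Col-0 arrays. The log2 difference was 0.06 (95% interval -0.30 to 0.41, limma adjusted p = 0.879), so the level of RAP2.12 itself did not show the label. HRE2 (AT2G47520) and ADH1 (AT1G77120), which ERF-VII factors are known to switch on, rose by 3.87 (limma adjusted p = 0.00996) and 3.23 (limma adjusted p = 0.0209). HRE1, RAP2.2 and RAP2.3, the other ERF-VII genes looked at, did not pass. Their differences were -0.10 (limma adjusted p = 0.867), 0.12 (limma adjusted p = 0.747) and 0.47 (limma adjusted p = 0.288). The mean of HRE1 was under the lower quartile of levels. The stretch of RAP2.12 RNA that its probes match is unknown here. The 5 leaf marker genes lay between 11.29 and 13.09 on all 4 arrays, and on the linear scale summed to 22359 to 22919 on the arrays labelled ∆13RAP2.12 and 24203 to 24753 on the Col-0 arrays. The 4 root markers summed to 3048 to 3271 on the arrays labelled ∆13RAP2.12 and 2163 to 2337 on the Col-0 arrays, a sum carried mostly by PYK10. Their differences were 0.72 for PYK10, 0.08 for SCR, -0.16 for NRT2:1 and -0.66 for IRT1, and the means of NRT2:1 and IRT1 were under the lower quartile of levels (4.82). The 4 flower markers summed to 83.7 to 83.9 on the arrays labelled ∆13RAP2.12 and 119 to 153 on the Col-0 arrays, with 3 of 4 under that quartile. The remaining flower marker, AG, had 5.22 and 5.45 on the arrays labelled ∆13RAP2.12 against 6.27 and 6.60 on the Col-0 arrays. Its difference was -1.10 (limma adjusted p = 0.0690). The 4 seed markers lay between 3.88 and 5.37 on all arrays. No marker of these 4 lists passed the test, and their part in the results below was not tested. In whole rosettes, fewer cells of a type and less RNA per cell cannot be told apart.

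No transcript of the pyruvate dehydrogenase complex and the TCA cycle differed by 2-fold or more from its wild-type level. None of the 36 genes passed the test in either direction (limma, Benjamini-Hochberg adjusted p below 0.05), with adjusted p from 0.122 to 0.966. Over all probe sets 1.74% were called higher and 0.424% lower, so 0 of 36 lies near these shares. A variant of the fit, described below, called 3 members lower. Differences ran from -0.59 for IDH-VI to 0.19 for AT5G65750, and 35 of 36 were smaller than 0.5 in size. The 95% intervals of all 36 genes lay inside 2-fold in both directions, their outer bounds being -0.92 and 0.52. Over all probe sets, 82.6% had such an interval. The members were also measured a little more precisely than most, with a median standard error of 0.12 against 0.15 over all probe sets. Below an unadjusted p of 0.05 stood 4 members with negative differences and 0 with positive ones, where all probe sets gave 8.38% and 7.85%.

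**Figure D1:**
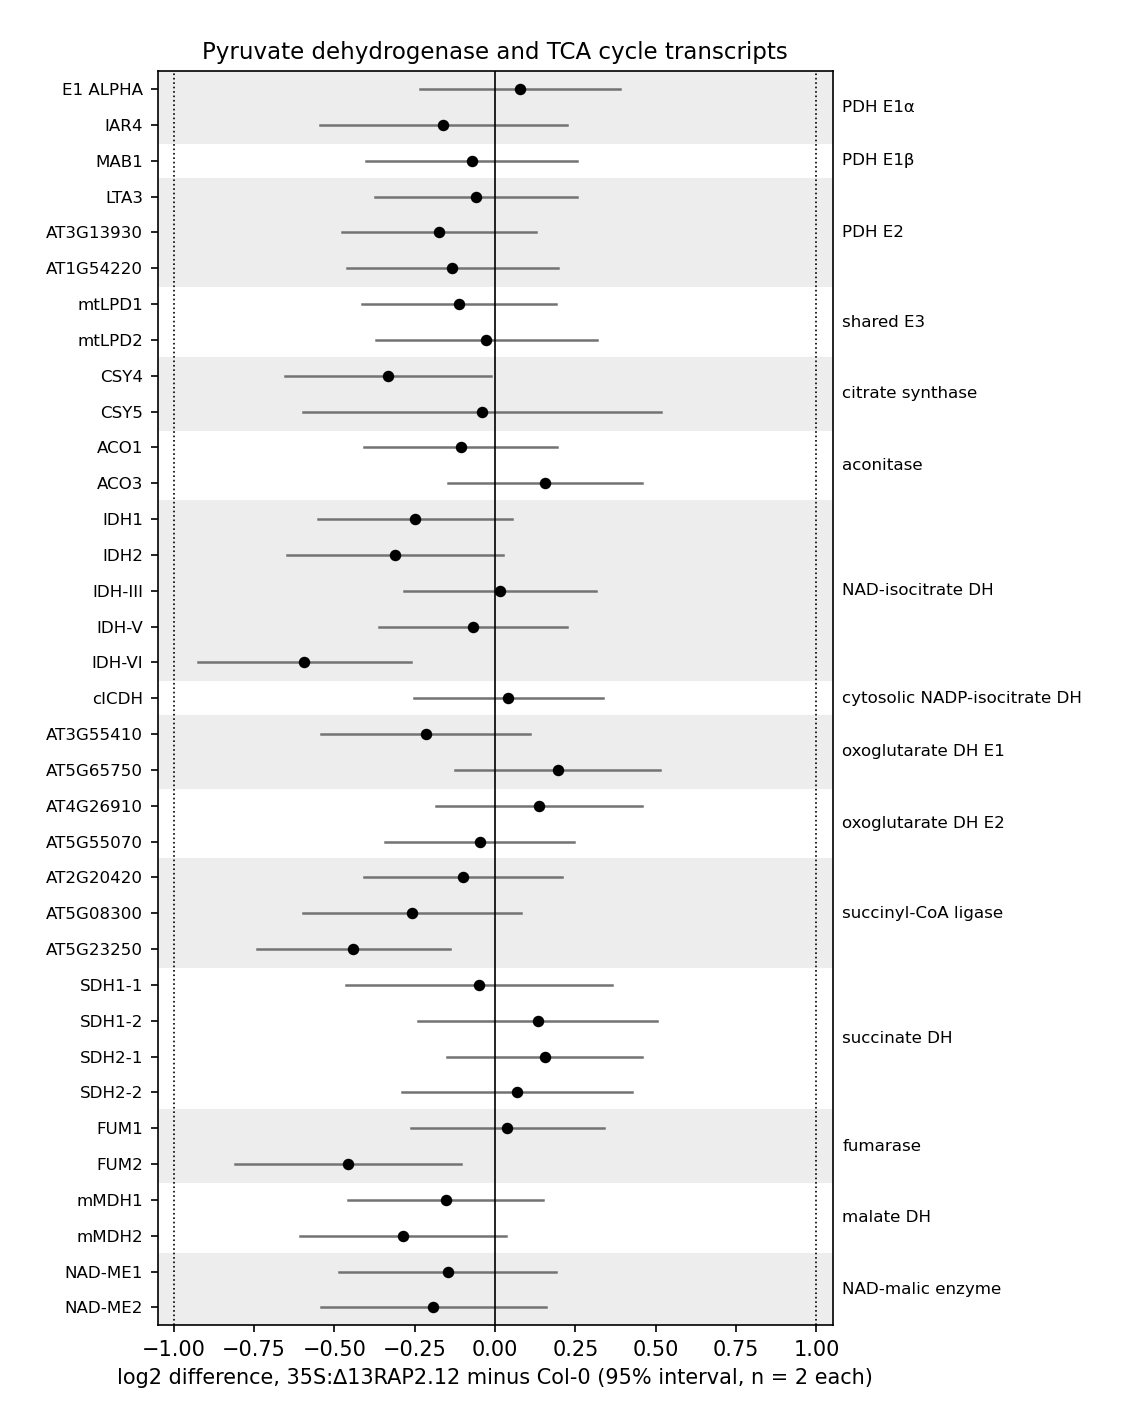
Log2 difference between the arrays labelled ∆13RAP2.12 and Col-0 (x axis) for 35 of the 36 genes (y axis), grouped by enzyme; points are differences, lines are 95% intervals from limma (n = 2 arrays each), and dotted lines mark 2-fold. No interval shown reaches 2-fold, and only the intervals of IDH-VI, FUM2, AT5G23250 and CSY4 leave out 0.

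Small negative differences outnumbered positive ones. The difference was below 0 for 26 members and above 0 for 10, with a median of -0.10 and quartiles of -0.22 and 0.02. Of all probe sets 57.6% lay below 0, with a median of -0.04 and quartiles of -0.20 and 0.13. Both arrays labelled ∆13RAP2.12 lay below both Col-0 arrays for 21 members, and above them for 6, while the groups overlapped for 9. Over all probe sets, 29.1% lay below and 19.5% above in this sense. Many of these gaps were narrow. Groups apart by over 0.1 were found for 11 members on the low side and 1 on the high side, where all probe sets gave 16.9% and 12.5%.

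The shift was close in size to the difference between the Col-0 replicates. The 36 genes had median levels of 10.14 and 10.13 on the arrays labelled ∆13RAP2.12, and 10.20 and 10.17 on the Col-0 arrays. Between the arrays labelled ∆13RAP2.12, replicate 1 was higher than replicate 2 for 21 of 36, with a median difference of 0.013. Between the Col-0 arrays, replicate 1 was higher than replicate 2 for 28 of the 36 genes, with a median difference of 0.09, although the median over all probe sets was -0.0030. The 4 differences between single arrays of the 2 groups had medians over the members from -0.15 to -0.038, and 25 or 26 of the 36 genes were lower in each. Of all probe sets, 53.8% to 57.6% were lower in these comparisons, which reuse the same 4 arrays. Without Col-0 replicate 1 the median of the members was -0.058, and without Col-0 replicate 2 it was -0.15.

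**Figure D2:**
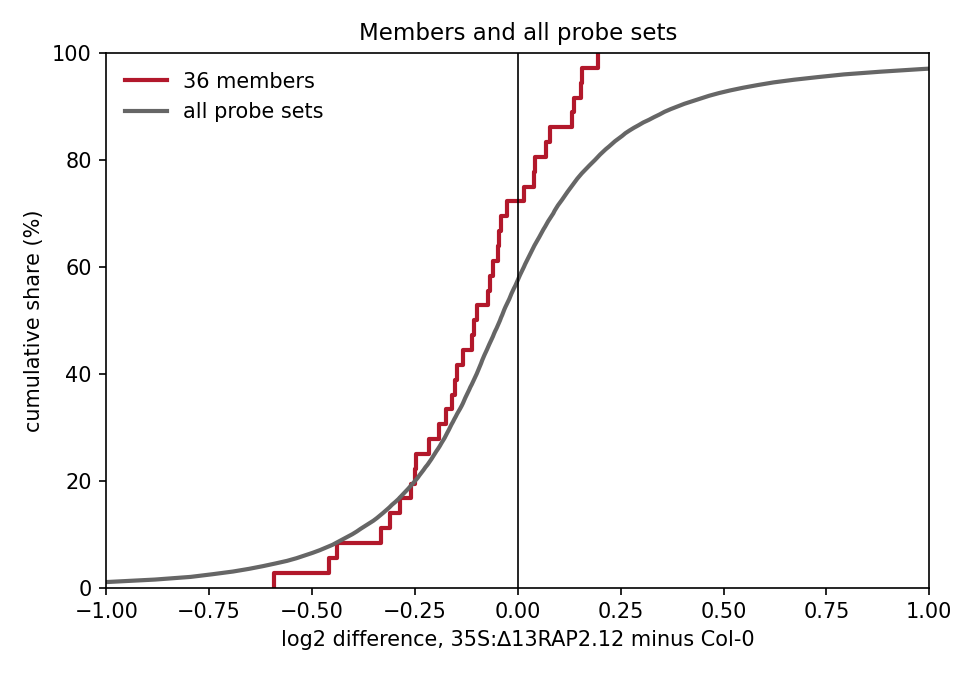
Cumulative share (y axis, percent) of log2 differences between the arrays labelled ∆13RAP2.12 and Col-0 (x axis, drawn from -1 to 1) for the 36 genes and for all 27826 probe sets. The members run from -0.59 to 0.19, while all probe sets, which are far more numerous, have tails past the drawn range on both sides.

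The pyruvate dehydrogenase complex is built from E1, which removes carbon dioxide from pyruvate, E2, which passes the acetyl group to coenzyme A, and E3, which reoxidises the lipoyl group. Its 8 genes here had differences from -0.17 to 0.08, and 0 passed. For E1α, the catalytic subunit, E1 ALPHA (AT1G59900) had 11.78 and 11.80 on the arrays labelled ∆13RAP2.12 and 11.78 and 11.65 on the Col-0 arrays. The second E1α gene, IAR4 (AT1G24180), had 10.74 and 10.73 against 11.04 and 10.75 on the Col-0 arrays. These groups were set apart by no more than 0.011, with differences of 0.08 for E1 ALPHA and -0.16 for IAR4. With each array left out, these ran from 0.01 to 0.14 for E1 ALPHA and from -0.30 to -0.02 for IAR4. MAB1 (AT5G50850), the E1β subunit, had 11.45 and 11.55 on the arrays labelled ∆13RAP2.12 and 11.64 and 11.50 on the Col-0 arrays, so that the groups overlapped.

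The 3 loci listed as E2 had differences of -0.06 for LTA3 (AT3G52200), -0.17 for AT3G13930 and -0.13 for AT1G54220. AT3G13930 was the member of the complex with the widest gap, at 11.29 and 11.20 on the arrays labelled ∆13RAP2.12 against 11.41 and 11.44 on the Col-0 arrays (95% interval -0.48 to 0.13, limma adjusted p = 0.534). The E3 genes mtLPD1 (AT1G48030) and mtLPD2 (AT3G17240), whose product also serves 2-oxoglutarate dehydrogenase and glycine decarboxylase, had differences of -0.11 and -0.03. AT3G13930, AT1G54220 and 7 loci below carry no symbol in the gene table used here. Their place in an enzyme comes from knowledge of the field and from no file of the series.

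Pyruvate also feeds fermentation through PDC1, a cytosolic pyruvate decarboxylase. PDC1 (AT4G33070) had 9.82 and 9.91 on the arrays labelled ∆13RAP2.12 against 4.60 and 4.87 on the Col-0 arrays, and rose by 5.13 (95% interval 4.75 to 5.52, limma adjusted p = 0.00277). The intervals of the 8 pyruvate dehydrogenase genes lay between -0.54 and 0.39. PDK (AT3G06483), the kinase that switches the complex off by phosphorylation, had a difference of -0.06 (limma adjusted p = 0.881).

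From acetyl-CoA to 2-oxoglutarate, 8 of 10 genes had negative differences, with a median of -0.18, and 0 passed. CSY4 (AT2G44350), a citrate synthase of the mitochondrion, which joins acetyl-CoA to oxaloacetate, had 10.42 and 10.45 on the arrays labelled ∆13RAP2.12, against 10.84 and 10.69 on the Col-0 arrays. The groups did not overlap, and CSY4 differed by -0.33, with a 95% interval of -0.65 to -0.01 (SE 0.12, limma adjusted p = 0.297). CSY5 (AT3G60100), listed as a further citrate synthase, had a mean under the lower quartile of levels and lay between 3.63 and 4.06. Its replicates lay further apart than its groups.

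Aconitase turns citrate into isocitrate, and the aconitase genes ACO3 and ACO1 stood on opposite sides of the wild type. ACO3 (AT2G05710) had 11.03 and 11.06 on the arrays labelled ∆13RAP2.12 against 10.93 and 10.84 on the Col-0 arrays, a difference of 0.16 (95% interval -0.15 to 0.46, limma adjusted p = 0.579). ACO1 (AT4G35830) had 11.42 and 11.41 on the arrays labelled ∆13RAP2.12 against 11.57 and 11.48 on the Col-0 arrays, a difference of -0.11 (95% interval -0.41 to 0.19). The groups overlapped for neither gene.

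The NAD-dependent isocitrate dehydrogenase, which makes 2-oxoglutarate and the first NADH of the cycle, held the largest difference of all 36 genes. IDH-VI (AT3G09810), a catalytic subunit, had 9.05 and 8.92 on the arrays labelled ∆13RAP2.12 and 9.64 and 9.52 on the Col-0 arrays. The groups were 0.465 apart, with SDs of 0.092 on the arrays labelled ∆13RAP2.12 and 0.090 on the Col-0 arrays, and IDH-VI differed by -0.59, or 0.663-fold, with a 95% interval of -0.92 to -0.26 (SE 0.12). It did not pass over all probe sets (limma adjusted p = 0.122). The other catalytic subunit, IDH-V (AT5G03290), had 10.88 and 10.92 on the arrays labelled ∆13RAP2.12 against 10.98 and 10.96 on the Col-0 arrays, a difference of -0.07 (95% interval -0.36 to 0.22).

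The regulatory subunits IDH1 (AT4G35260) and IDH2 (AT2G17130) lay in between. IDH1 had 9.44 and 9.39 on the arrays labelled ∆13RAP2.12 against 9.70 and 9.63 on the Col-0 arrays, and IDH2 had 9.28 and 9.45 against 9.73 and 9.63 on the Col-0 arrays. Neither gene's groups overlapped, and the differences were -0.25 (95% interval -0.55 to 0.05) and -0.31 (95% interval -0.65 to 0.02). IDH-III (AT4G35650) lay between 3.91 and 3.99 on all 4 arrays, under the lower quartile. cICDH (AT1G65930), which makes 2-oxoglutarate and NADPH in the cytosol, had 12.01 and 12.04 on the arrays labelled ∆13RAP2.12 against 12.01 and 11.97 on the Col-0 arrays, a difference of 0.04.

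2-Oxoglutarate dehydrogenase works like pyruvate dehydrogenase and makes succinyl-CoA. Its E1 loci stood on opposite sides of the wild type. AT3G55410 had 10.46 and 10.38 on the arrays labelled ∆13RAP2.12 against 10.71 and 10.56 on the Col-0 arrays, a difference of -0.22 (95% interval -0.54 to 0.11, limma adjusted p = 0.479). AT5G65750 had 9.44 and 9.45 on the arrays labelled ∆13RAP2.12 against 9.33 and 9.18 on the Col-0 arrays. Its difference of 0.19 (95% interval -0.12 to 0.51, limma adjusted p = 0.510) was the highest of the 36 genes, and its groups were the 1 case on the high side apart by over 0.1. The E2 loci were AT4G26910 at 0.14 and AT5G55070 at -0.05.

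Succinyl-CoA ligase, which makes ATP as it frees succinate, had negative differences at its 3 loci, with a median of -0.26, and 0 passed. The median was -0.35 without ∆13RAP2.12 replicate 1 and -0.16 without ∆13RAP2.12 replicate 2. The groups did not overlap at these loci, as for 29.1% of all probe sets on the low side. AT5G23250, an α subunit, had 9.29 and 9.20 on the arrays labelled ∆13RAP2.12 against 9.69 and 9.68 on the Col-0 arrays. Its difference of -0.44 had a 95% interval of -0.74 to -0.14 (SE 0.11, limma adjusted p = 0.175), and the groups were 0.393 apart. The other α locus, AT5G08300, had 9.11 and 8.92 against 9.24 and 9.31 on the Col-0 arrays, a difference of -0.26 (95% interval -0.60 to 0.08). The β locus AT2G20420 lay closest to the wild type, at -0.10, with groups 0.021 apart.

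Succinate dehydrogenase, which is also complex II of the respiratory chain, had a median of 0.10, and 3 of its 4 genes had positive differences. That median was 0.19 without Col-0 replicate 1 and 0.0062 without Col-0 replicate 2. SDH1-1 (AT5G66760), a flavoprotein subunit, had 11.09 and 10.95 on the arrays labelled ∆13RAP2.12 against 11.22 and 10.92 on the Col-0 arrays, so that the Col-0 values enclosed the others. The second flavoprotein gene, SDH1-2 (AT2G18450), lay below the lower quartile at 4.47 to 4.78. For the iron-sulphur subunit, SDH2-1 (AT3G27380) had a difference of 0.15 with groups that did not overlap, and SDH2-2 (AT5G40650) had 0.07 with groups that did. Of the other complex II subunits, 8 were measured and 0 passed, with a median of -0.05. SDH2-3 (AT5G65165), whose mean level was under the lower quartile, had the smallest p of these, with a difference of 0.27 (limma adjusted p = 0.446). SDH6 (AT1G08480), also a complex II subunit and named after its values were seen, came next, with a difference of -0.23 (limma adjusted p = 0.452).

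Fumarase exists in Arabidopsis as a mitochondrial enzyme, FUM1, and a cytosolic one, FUM2, and their values parted. FUM2 (AT5G50950), known for the fumarate that leaves store by day, had 9.90 and 9.67 on the arrays labelled ∆13RAP2.12, against 10.24 on both Col-0 arrays. Its difference of -0.46 (95% interval -0.81 to -0.11, limma adjusted p = 0.211) amounts to 0.728-fold. FUM1 (AT2G47510) had 10.19 and 10.11 on the arrays labelled ∆13RAP2.12 against 10.12 and 10.10 on the Col-0 arrays. Its groups overlapped, with a difference of 0.04 (95% interval -0.26 to 0.34).

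**Figure D3:**
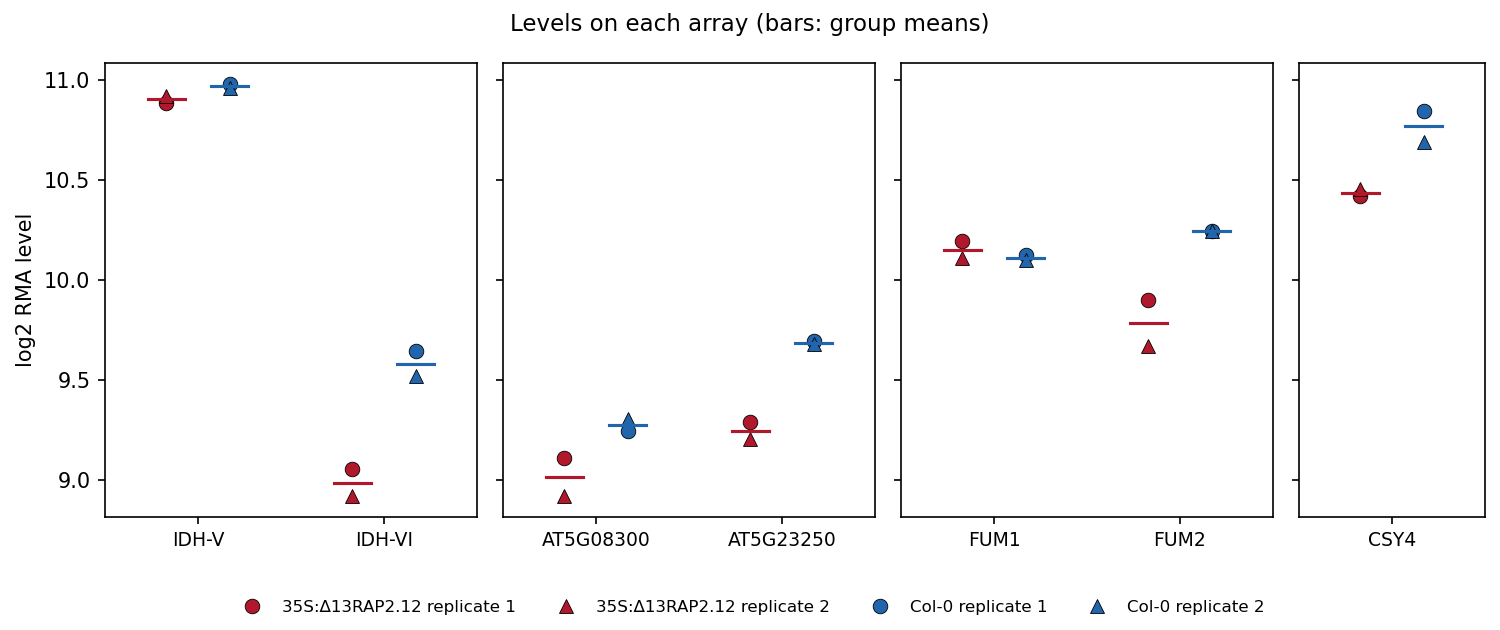
Log2 RMA level (y axis) on each array for IDH-VI, AT5G23250, FUM2 and CSY4, the members with an unadjusted p below 0.05, beside IDH-V, AT5G08300 and FUM1 of the same enzymes; bars are group means (n = 2 each), and levels of different genes are not comparable. For IDH-VI the arrays labelled ∆13RAP2.12 sit at 9.05 and 8.92, below 9.64 and 9.52 on the Col-0 arrays, while those of FUM1 overlap.

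Malate dehydrogenase closes the cycle by remaking oxaloacetate. mMDH2 (AT3G15020) had 9.70 and 9.62 on the arrays labelled ∆13RAP2.12 against 9.88 and 10.01 on the Col-0 arrays, a difference of -0.29 (95% interval -0.61 to 0.04, limma adjusted p = 0.357). mMDH1 (AT1G53240) had 12.09 and 12.04 on the arrays labelled ∆13RAP2.12 against 12.18 and 12.27 on the Col-0 arrays, a difference of -0.15. The groups did not overlap for either gene.

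NAD malic enzyme turns malate into pyruvate in the mitochondrion. Its subunit genes NAD-ME1 (AT2G13560) and NAD-ME2 (AT4G00570) had close differences of -0.15 and -0.19. Their groups were less than 0.1 apart. NAD-ME1 had 11.46 and 11.49 on the arrays labelled ∆13RAP2.12 against 11.72 and 11.52 on the Col-0 arrays, and NAD-ME2 had 8.78 and 8.77 against 9.08 and 8.86 on the Col-0 arrays. Col-0 replicate 1 was the highest array for both genes.

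Genes of the same enzyme were then compared within each array, as the log2 level of the first minus that of the second, which cancels any scale shared by the array. Over 12 such pairs, this ratio differed between the groups by -0.41 to 0.52. IDH-V over IDH-VI gave 1.83 and 2.00 on the arrays labelled ∆13RAP2.12 against 1.34 and 1.44 on the Col-0 arrays, the largest difference at 0.52. FUM1 over FUM2 gave 0.29 and 0.43 on the arrays labelled ∆13RAP2.12 against -0.12 and -0.14 on the Col-0 arrays, a difference of 0.50. The ratio of AT3G55410 over AT5G65750 was 1.02 and 0.93 on the arrays labelled ∆13RAP2.12 and 1.38 on both Col-0 arrays, a difference of -0.41. These 3 pairs were singled out after their values were seen. The groups did not overlap in 9 of the 12 pairs, and lay further apart than the replicates within them in 4, the other one being mMDH1 over mMDH2. For single levels, 48.6% of all probe sets did not overlap. No such share was computed for ratios of other gene pairs, so these counts are not read as particular to these enzymes. An exact permutation test of 2 arrays against 2 cannot go below a two-sided p of 0.333, so the ratios are given without one. Probe sequences were not used here, so how far a probe set also reads its sister gene is unknown.

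**Figure D4:**
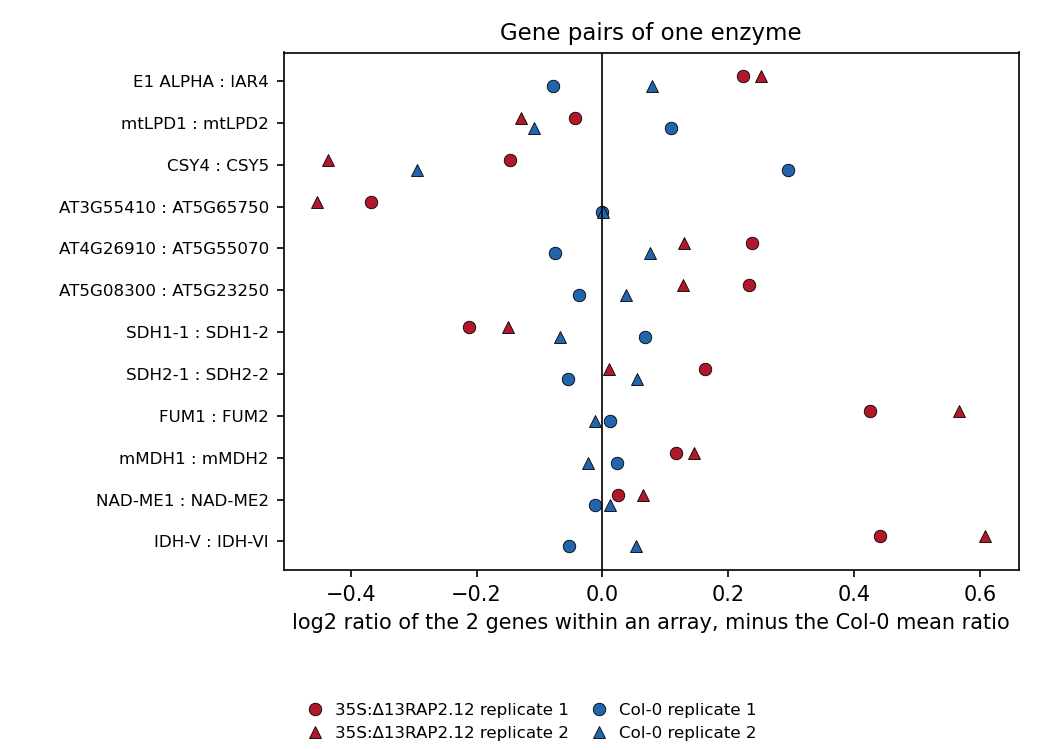
Log2 ratio of the 2 genes of an enzyme within each array, minus the mean ratio of the Col-0 arrays (x axis), for 12 pairs (y axis); each point is 1 array. The pairs IDH-V over IDH-VI and FUM1 over FUM2 lie furthest to the right on the arrays labelled ∆13RAP2.12, and AT3G55410 over AT5G65750 lies to the left.

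Whether members with the smallest p passed depended on how their variance was estimated. When limma's prior variance was allowed to follow the level, 3 of the 36 genes were lower, where 2.58% of all probe sets were called lower. They were IDH-VI (limma adjusted p = 0.0218), FUM2 (limma adjusted p = 0.0432) and AT5G23250 (limma adjusted p = 0.0498), with the same differences as above. CSY4 did not pass in that fit either (limma adjusted p = 0.0701).

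Around the cycle, 12 lists of carriers and related enzymes held 51 genes, of which 50 were measured and 1 was not analysed here. Of the 50, 1 was higher and 0 were lower, a share near the 1.74% and 0.424% of all probe sets, and their median difference was -0.07. NADP-ME1 (AT2G19900), a cytosolic malic enzyme that uses NADP, had 5.46 and 6.11 on the arrays labelled ∆13RAP2.12 against 3.85 and 3.74 on the Col-0 arrays. It rose by 1.99 (SE 0.25, 95% interval 1.34 to 2.64, limma adjusted p = 0.0407), and its mean level was under the lower quartile. Its difference was 2.05 without Col-0 replicate 1 (adjusted p = 0.213) and 1.93 without Col-0 replicate 2 (adjusted p = 0.257), fits in which at most 29 of all probe sets passed. The other 3 NADP malic enzymes had differences from -0.19 to 0.04.

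No gene of the other 11 lists passed. Among 5 mitochondrial carriers of di- and tricarboxylates, DIC2 (AT4G24570) had 8.52 and 8.40 on the arrays labelled ∆13RAP2.12 against 7.95 and 7.66 on the Col-0 arrays, a difference of 0.66 (95% interval 0.26 to 1.06, limma adjusted p = 0.142). In the same list mSFC1 (AT5G01340), named after its values were seen, stood on the other side, with a difference of -0.49 (limma adjusted p = 0.163). Of 4 phosphoenolpyruvate carboxylases, which refill the cycle with oxaloacetate, PPC2 (AT2G42600) had 10.15 and 10.13 against 10.61 and 10.51 on the Col-0 arrays, a difference of -0.42 (limma adjusted p = 0.192). The plastid pyruvate dehydrogenase, which supplies fatty acid synthesis, had negative differences for 6 of its 7 genes, with a median of -0.17, and PDH-E1 BETA (AT1G30120) was at -0.46 (limma adjusted p = 0.231).

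For each of the remaining lists the gene with the smallest p is given. NRGA1 (AT4G05590), of 4 mitochondrial pyruvate carriers, had a difference of -0.36 (limma adjusted p = 0.276). Of 7 malate dehydrogenases outside mitochondria, c-NAD-MDH1 (AT1G04410) had -0.23 (95% interval -0.54 to 0.09). LIP2 (AT1G04640), of 2 lipoylation genes, had -0.18 (limma adjusted p = 0.535). The other 3 had means under the lower quartile of levels: CSY1 (AT3G58740), of 3 peroxisomal citrate synthases, at 0.42 (limma adjusted p = 0.211), MLS (AT5G03860), of 2 glyoxylate cycle enzymes, at -0.42 (limma adjusted p = 0.418), and IDH-IV (AT1G32480), of 3 other isocitrate dehydrogenases, at 0.21 (limma adjusted p = 0.748).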

How the data were processed

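Total RNA of whole rosettes was labelled with biotin and hybridised to 4 Affymetrix arrays, 2 per group. Seeds had 2 days at 4 °C, plants grew with 12 h of light at 22 °C and nights of 18 °C, per the labels' protocols, and rosettes were taken 10 h into the light period. The deposited values are RMA expression values, per the submitters' processing notes, on the log2 scale, as their range shows. RMA corrects background, normalizes by quantiles and summarises probe sets, so small shared shifts between arrays may be removed. The RMA software, its version and how probes were grouped were not given in the sources used here. Detection calls were not used, so signal over background is unknown. 

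Groups and replicate numbers came from the sample titles. Nothing says that replicates were separate plants, so the p-values reflect only the spread among these arrays, which may be technical. The whole table was fitted with limma 3.58.1 in R 4.3.3 (lmFit, eBayes, no covariates, no filter), with p-values adjusted by Benjamini-Hochberg across the 27826 probe sets and a threshold of 0.05. Residual degrees of freedom were 2 and prior degrees of freedom 2.55. The fit was run on simulated data with known differences, and the check asked only that the mean estimated differences lay close to them. How often differences were called there is not reported here. Errors beside differences are moderated standard errors. Symbols came from the RefSeq gene table of assembly TAIR10.1, which matched all 36 members and 27241 of all loci. No coordinates are printed, since no build is named for the array.

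The members, the 12 lists around the cycle and the 4 marker lists were chosen with earlier results of these data known. All members are named except 1, which counts in the totals and is not reported here by itself. In each list around the cycle the called genes, or the gene with the smallest p, are named. Of the marker lists, the root genes are named, and AG after its values were seen. Alternatives were each array left out, a threshold of 0.10, array weights, robust or intensity-trend eBayes, a replicate block, a level filter (25th percentile), median centring and a second quantile normalization. Plots used Python 3.11.15 and matplotlib 3.10.9.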

Additional observations from a re-analysis of the deposited data

How the results depend on the processing

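The count of 0 higher members held under the 12 alternatives, and the count of 0 lower members under all but the intensity trend, which gave 3; the level filter tested 33 of the 36, without CSY5, IDH-III and SDH1-2. The trend also gave 1 lower gene of the lists around the cycle, PPC2, and over all probe sets 1040 higher and 719 lower, against 485 and 118. At a threshold of 0.10 these were 829 and 374, and the level filter gave 256 lower. The filter removed NADP-ME1, which left 0 higher genes around the cycle. With each array left out, that count ranged from 0 to 1, all probe sets gave 0 to 286 higher and 0 to 29 lower, and 0 members were called; each such fit rests on fewer arrays, and the lone array is assumed to vary like the other group. The median over the members was -0.061 after a second quantile normalization and -0.13 after median centring, and ranged from -0.15 to -0.058 with each array left out; the cause was not tested. IDH-III turned to -0.011 under median centring. With an array left out, the differences of 22 of the 36 genes moved by over 1.5 times. Among members and named genes around the cycle, some differences changed sign with an array left out, each for a gene that had not passed. They ranged from -0.13 to 0.0052 for LTA3, from -0.10 to 0.051 for mtLPD2, from -0.26 to 0.18 for CSY5, from -0.028 to 0.058 for IDH-III, from -0.20 to 0.10 for SDH1-1, from -0.036 to 0.17 for SDH2-2, from -0.0042 to 0.081 for FUM1, from -0.19 to 0.068 for PDK and from -0.046 to 0.47 for IDH-IV. With the replicate number as a block, 0 members were called, and all probe sets gave 433 higher and 82 lower. Same-numbered arrays deviated together with a correlation of 0.035, and with 2 pairs the numbers were not taken to pair the samples. With 2 arrays a group, the median member had a standard error of 0.12, and signal over background is unknown.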
